A study of Mus musculus with 20 samples.

Results

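The genes described here are 7 mouse genes of MHC class II antigen presentation, chosen by name as the parts of 1 pathway, with earlier results of these data known: H2-Aa, H2-Ab1, H2-Eb1, Cd74, H2-DMa, H2-DMb1 and Ciita. All 7 were found among the 15855 genes of the cultured-cell table and the 15333 genes of the tumor-cell table. The single-cell RNA sequencing (scRNA-seq) covered 8 libraries. B-MF (2 libraries) were macrophages grown from sorted bone marrow B cells of female mice, and Mo-MF (2 libraries) were macrophages grown from bone marrow monocytes, both in medium conditioned by 4T1.2 mammary cancer cells; the strain of these cultures was not given in the sources used here. Tumor (4 libraries, numbered 2 to 5 in the table, numbers that could not be matched to the labelled replicates) were cells sorted as macrophages from 4T1.2 tumors of mice. The study's methods describe its mice as females of 8 to 12 weeks and place 4T1.2 cells in BALB/cJ or μMT mice. They do not state the host strain of these tumor libraries separately. A separate assay of open chromatin (ATAC-seq) covered 12 libraries of CSF1R+ and CSF1R- B-cell precursors from bone marrow (BM) and spleen of naive mice, 3 per group. The labels call these cells macrophages, and the study's results call them B-cell precursors.

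MHC class II molecules are cell-surface heterodimers that show peptides from the endosomal pathway to CD4+ T cells, and they are made constitutively by B cells and dendritic cells and inducibly by macrophages. The α chain of I-A is encoded by H2-Aa, its β chain by H2-Ab1, and the β chain of I-E by H2-Eb1. The invariant chain, encoded by Cd74, fills the groove of new class II molecules, and the H2-DM heterodimer, encoded by H2-DMa and H2-DMb1, exchanges its remnant for peptide. Ciita encodes the coactivator without which class II genes are not transcribed; it binds no DNA itself but is recruited by factors on the X and Y boxes of their promoters.

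The promoter windows are shown because Ciita acts through their boxes. RefSeq windows of 250 bases before to 50 bases after the transcription start (GRCm38.p6, 4 of the 7 members matched) are printed 5′ to 3′ for H2-Aa (chr17:34287774-34288073, minus strand), H2-Eb1 (chr17:34305617-34305916, plus strand) and H2-DMb1 (chr17:34152941-34153240, plus strand). The matching H2-DMa windows are not shown, because neither covers the start that carried its strongest open-chromatin peak. Capitals mark the Y-box core GATTGG, on either strand, and the X-box pattern CTAGNAACNNATGATG.
H2-Aa: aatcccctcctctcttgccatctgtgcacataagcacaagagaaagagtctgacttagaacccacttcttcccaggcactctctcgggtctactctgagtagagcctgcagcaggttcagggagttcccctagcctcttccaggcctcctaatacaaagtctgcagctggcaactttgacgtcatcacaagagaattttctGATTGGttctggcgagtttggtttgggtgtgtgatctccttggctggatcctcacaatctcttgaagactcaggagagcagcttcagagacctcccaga
H2-Eb1: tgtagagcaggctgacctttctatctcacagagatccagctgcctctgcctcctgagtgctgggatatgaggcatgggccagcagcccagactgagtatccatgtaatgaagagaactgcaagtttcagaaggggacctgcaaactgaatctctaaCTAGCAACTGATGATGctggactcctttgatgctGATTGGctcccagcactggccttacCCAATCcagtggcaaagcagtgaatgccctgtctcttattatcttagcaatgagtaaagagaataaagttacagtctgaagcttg
H2-DMb1: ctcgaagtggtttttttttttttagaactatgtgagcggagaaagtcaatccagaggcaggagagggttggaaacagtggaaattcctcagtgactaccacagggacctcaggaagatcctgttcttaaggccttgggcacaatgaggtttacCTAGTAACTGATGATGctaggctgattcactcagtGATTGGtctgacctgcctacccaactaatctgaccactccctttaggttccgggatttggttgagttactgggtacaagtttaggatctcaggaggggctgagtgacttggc
The 6-base Y-box core was found in the windows of H2-Aa, H2-Eb1 and H2-DMb1, where it began 49, 60 and 62 bases before the start. Of the H2-DMa windows, the one from 34125268 held it 199 bases before its start, and the one from 34122582 did not. On either strand it was in 16.1% of all 32851 RefSeq windows. The X-box pattern holds the letters shared by the windows of H2-Eb1, H2-DMb1 and the class II-like gene H2-Ob, with N where they differ, so these 3 hold it by construction. No other of the 32851 windows held it on either strand (3 windows, 0.00913%). The 2 motifs did not overlap, and in H2-Eb1 and H2-DMb1 18 and 19 bases lay between them. The H2-Aa window did not hold the X-box pattern. As the pattern comes from 3 genes and does not define the X box, this does not show that H2-Aa lacks one. An X box of another sequence was not looked for.

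The values are counts of unique molecules per cell that the authors corrected for depth, so each level below is a mean corrected count per cell of a library. The cultured libraries held 4846 to 5389 cells with median corrected totals of 18350 to 19469, and the tumor libraries held 2318 to 3180 cells with medians of 7651 to 8266. Within a table, 3 to 28 cell barcodes of a library recurred in another library. In each cultured library about 99.7% or more of the cells held at least 3 of 8 macrophage markers, so this measure did not tell cell types apart. Mo-MF contained a neutrophil-like cluster, 10.4 and 9.59% of cells, which B-MF lacked apart from 3 cells. The tumor libraries went against their macrophage label: neutrophil-like cells made up 35.3 to 62.2% of them, and monocyte/macrophage-like cells 33.8 to 62%. Cell types were named by clustering without any MHC class II gene, from markers listed for this work. The 2 tables differ in these totals and in their genes, and the sources used here do not say whether they were corrected together, so levels in cultured and tumor cells are set side by side and not tested.

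In both cultures most cells had no count of the 3 chain genes, and a small minority carried most of the signal. The summed count of H2-Aa, H2-Ab1 and H2-Eb1 was 0 in 83.4 and 84.6% of B-MF cells, against 79.5 and 81.1% of Mo-MF cells. Cells with a sum of at least 10, called class II-high here, were 3.57% of the first B-MF library (187 of 5237 cells, exact Clopper-Pearson 95% interval 3.08 to 4.11%, counting error only) and 2.93% of the second (156 of 5326 cells, 2.49 to 3.42%). In Mo-MF they were 4.15% (201 of 4846 cells, 3.6 to 4.75%) and 3.21% (173 of 5389 cells, 2.76 to 3.72%). The groups overlapped, so no difference in the share of class II-high cells was shown between B-MF and Mo-MF; 2 libraries against 2 allow no exact permutation p below 1/3. Class II-high is a range and not a cell type, and 39 to 78 cells of each cultured library had a sum of 8 to 12, close to its edge.

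The class II-high cells of B-MF had the higher mean sum. The mean sum in class II-high cells was 66.7 and 74.5 in B-MF against 34.6 and 36.2 in Mo-MF. The median sum of these cells was closer, at 32 and 28.5 against 24 and 21. The highest sum of a single cell was 839 and 718 against 162 and 358. At a higher edge of 50, B-MF had 1.24 and 1.01% of cells (65 and 54 cells) and Mo-MF 0.887 and 0.631% (43 and 34 cells). Both B-MF shares were the higher ones. No counting interval was computed at this edge, and at the edge of 10 the groups overlapped. Class II-high cells held 90 and 88.5% of all chain counts of B-MF, against 78.9 and 75.7% for Mo-MF. The 10 brightest cells alone held 29.4 and 30.2% of the chain counts of the B-MF libraries and 14.2 and 20.4% of those of the Mo-MF libraries. As few as 30 and 25 B-MF cells supplied 50% of the library's chain counts, against 65 and 53 Mo-MF cells. In the plot of the distribution the Mo-MF curves lie higher at sums of 2 to 15 and the B-MF curves higher in the last 2 bins.

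**Figure D1:**
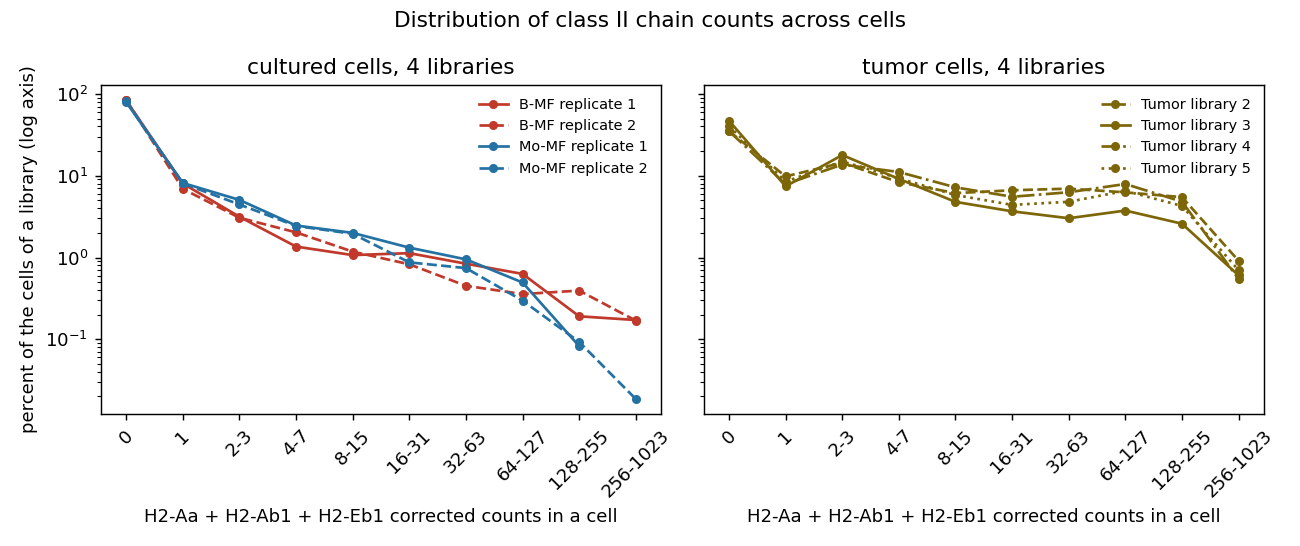
Share of the cells of each library (log axis, percent) by the summed corrected count of H2-Aa, H2-Ab1 and H2-Eb1 in a cell, for 4 cultured and 4 tumor libraries. In cultures 79.5 to 84.6% of cells are at 0 and bright cells are rare, whereas tumor cells have a broad shoulder of bright cells.

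The mean levels of the 3 chains and Cd74 were higher in B-MF, and that of H2-DMa was lower. Of the 7 members, 5 had a mean of at least 0.1 over the 4 cultured libraries and entered the test (limma on the log2 of the library mean plus 0.1, Benjamini-Hochberg adjustment over 8633 genes, threshold 0.05). Of these, 4 were higher and 1 was lower in B-MF, where 22.6% of all genes tested were called higher, 16.9% lower and 39.5% in either direction. Against so large a background the counts alone say little about the members, and their sizes are given below. The median log2 difference over all genes tested was 0.02.

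H2-Eb1 and Cd74 were higher in B-MF. The H2-Eb1 mean count was 0.686 and 0.671 in B-MF against 0.299 and 0.266 in Mo-MF, so the groups lay far apart. The difference was 1.03 on the log2 (mean + 0.1) scale (SE 0.0588, limma adjusted p = 5.01e-06, n = 2 libraries per group). This is a fold of 2.04 in the mean + 0.1, not in the mean itself. Cd74 was at 4.14 and 3.66 in B-MF against 2.35 and 1.87 in Mo-MF. That is 0.86 on the same log2 scale (SE 0.102, limma adjusted p = 0.000328) and a fold of 1.82 in the mean + 0.1. Which of them differed more depended on the pseudocount: at 1 in place of 0.1 the log2 difference was 0.39 for H2-Eb1 and 0.66 for Cd74. The share of cells with a Cd74 count was also larger in B-MF, at 28.4 and 26.2% against 20.5 and 19%. For H2-Eb1 the mean share was larger in B-MF by only 0.739 percentage points.

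The I-A chains differed less, and mean and prevalence ran in opposite directions. H2-Aa had means of 1.02 and 0.927 in B-MF against 0.758 and 0.637 in Mo-MF (log2 difference 0.43, SE 0.0798, limma adjusted p = 0.00353). H2-Ab1 had means of 0.943 and 0.87 in B-MF against 0.763 and 0.632 in Mo-MF (log2 difference 0.34, SE 0.0817, limma adjusted p = 0.0121). Without Mo-MF replicate 2 the H2-Ab1 difference was 0.22 and its call was not kept. That fit leaves 1 Mo-MF library and pools the spread over genes. With no filter on low means neither H2-Aa nor H2-Ab1 was called (limma adjusted p = 0.0677 and 0.115). Their differences were unchanged there, at SEs of 0.0987 and 0.102. Yet H2-Aa was detected in only 9.3 and 8.47% of B-MF against 12.5 and 11.7% of Mo-MF, and H2-Ab1 in 11.8 and 11.3% against 16.5 and 14.2%. Whether low counts are the cells' own was not tested. When each cell counted on the natural log scale, which gives bright cells little weight, both differences turned to -0.0445 and -0.046 (log2 units, limma adjusted p = 0.109 and 0.0958) and H2-Eb1 shrank to 0.0334 (adjusted p = 0.264). None of the 3 chains was thus called higher on a scale that gives bright cells little weight, while Cd74 stayed higher on that scale (0.144, adjusted p = 1.67e-09). The SE was the same for all tested members there (0.0228), so these p-values rest on a spread pooled over genes.

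H2-DMa behaved differently from the chains it serves. It was spread over many cells, with a count in 51 and 47.1% of B-MF cells, against 62.3 and 62.4% of Mo-MF cells. Its mean was 0.992 and 0.949 in B-MF against 1.21 and 1.17 in Mo-MF. It was lower by 0.27 on the log2 scale (SE 0.0519, limma adjusted p = 0.00422). The call was not kept without Mo-MF replicate 1, where the difference was -0.25 and the spread was pooled over genes. Class II-high cells held only 14.4 and 11.7% of the H2-DMa counts of B-MF, against 11 and 9.53% for Mo-MF. Within class II-high cells its mean was 3.99 and 3.79 for B-MF and 3.19 and 3.49 for Mo-MF, against 0.881, 0.863, 1.12 and 1.1 in the other cells of the same libraries, so the lower B-MF mean lay in the class II-low majority.

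H2-DMb1 and Ciita were below the level tested. H2-DMb1, the partner chain of H2-DMa, was at 0.0493 and 0.0421 in B-MF, with 0.0464 and 0.0401 in Mo-MF, and 85.3 and 85.7% of its B-MF counts lay in class II-high cells, against 74.2 and 69.9% in Mo-MF. Its near-identical neighbour H2-DMb2 (0.0544, 0.0451, 0.0421 and 0.0362 in the same order) can share reads with it, so the split between them is uncertain. Ciita was at 0.0239 and 0.0197 in B-MF, with 0.0336 and 0.033 in Mo-MF, with a count in 1.43 and 1.28% against 2.52 and 2.32% of cells. Its libraries did not overlap, with the lower values in B-MF, and the share of all genes without overlap was not counted. In a fit with no filter on low means its limma adjusted p was 0.0447, and that of H2-DMb1 was 0.753. That fit called 1918 genes higher and 1750 lower in B-MF among 15855 tested. Ciita stood near the floor, so no difference is claimed for it.

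**Figure D2:**
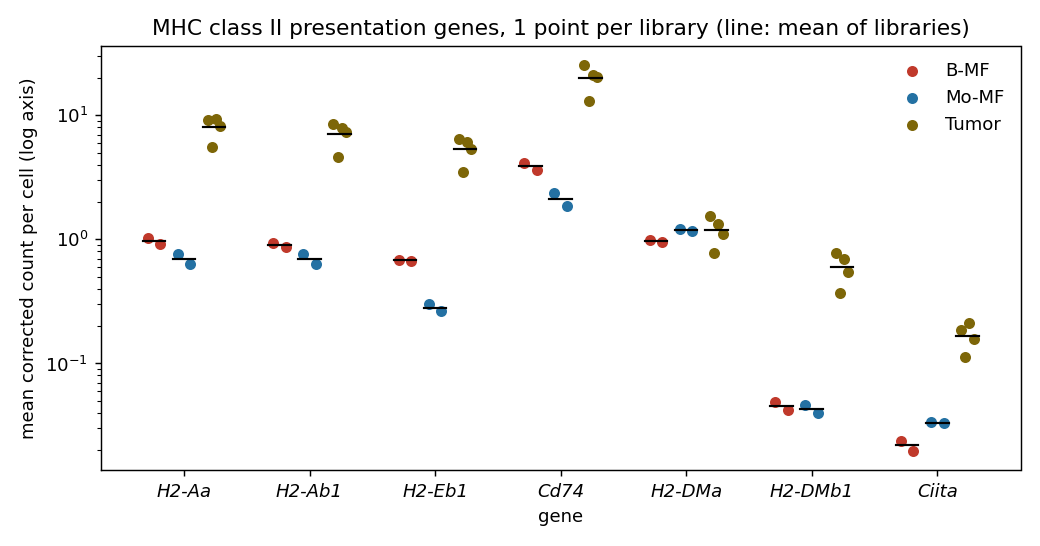
Mean corrected count per cell (log axis) of the 7 genes, with 1 point per library and a line at the mean of the libraries of B-MF (n = 2), Mo-MF (n = 2) and Tumor (4 libraries). H2-Eb1 and Cd74 lie higher in B-MF, H2-DMa is the tested gene that is lower in B-MF, and tumor values come from another table.

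Cells with a Ciita count were few, and they were class II-high more often than cells without one. In B-MF, 54.7 and 52.9% of the 75 and 68 cells with a Ciita count were class II-high, against 2.83 and 2.28% of cells without one. In Mo-MF these shares were 44.3 and 37.6% of 122 and 125 cells, against 3.11 and 2.39%. The mean chain sum of Ciita-positive cells was 83.8 and 83.7 in B-MF but 20.9 and 19 in Mo-MF, with no median computed. Not all were bright: the chain sum was 0 in 18.7 and 19.1% of them in B-MF and in 23.8 and 27.2% in Mo-MF. Among cells without a Ciita count it was 0 in 84.4 and 85.5% for B-MF and 80.9 and 82.4% for Mo-MF. Most class II-high cells nevertheless had no Ciita count, since it was detected in 21.9 to 27.2% of them, and at this depth a cell without a count cannot be called a cell without the transcript. Median detected genes of cells with and without Ciita were between 3397.5 and 3899 in all 4 libraries.

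The 3 chains were also present in different proportions. Counts of H2-Eb1 per count of H2-Aa were 0.673 and 0.724 in B-MF against 0.395 and 0.417 in Mo-MF, whereas H2-Ab1 per H2-Aa was 0.926 and 0.938 against 1.01 and 0.992. Within class II-high cells the H2-Eb1 ratio was 0.694 and 0.76 in B-MF against 0.449 and 0.491 in Mo-MF, and in the remaining cells 0.454 and 0.394 against 0.175 and 0.178. B-MF was thus higher in H2-Eb1 per H2-Aa in both ranges of brightness, which with 2 libraries per group is given as a description. The strain of the cultures was not given in the sources used here, and its part in this ratio was not tested.

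Class II-high cells of the cultures lay in monocyte/macrophage-like clusters about as often as all cells did. These clusters held 93 and 92.9% of class II-high B-MF cells, where they held 93.9 and 95.6% of all B-MF cells. For Mo-MF the shares were 84.1 and 87.3% of class II-high and 81.6 and 83.6% of all cells. Within B-MF a cluster led by Tmem176a, Ier3 and Egr1 held 57.8 and 53.8% of class II-high cells against 40.7 and 43.1% of all cells, and one led by Myc and Cdkn2a held 24.1 and 28.2% against 44.1% of all cells in each library. Within Mo-MF a cluster led by Bex1 and Arg1 held 68.2% of class II-high cells in each library, against 57.6 and 58.4% of all cells. The neutrophil-like cluster held 11.4 and 9.25% of the class II-high Mo-MF cells, and its class II-high share (4.57 and 3.09%) and mean sum (1.75 and 1.44) were close to those of monocyte/macrophage-like Mo-MF (4.28 and 3.35%, mean sum 1.91 and 1.62). All 187 and 156 class II-high B-MF cells held at least 3 macrophage markers, as did 99.8 and 99.9% of the other B-MF cells. As nearly every cultured cell did, this says nothing particular of class II-high cells. At least 3 of 8 B-cell markers were found in 5 and 3 of them and in none of the 201 and 173 Mo-MF cells, and the mean summed B-cell marker count was 3.78 and 2.42 in class II-high B-MF against 0.445 and 0.451 in the other B-MF cells, 0.194 and 0.249 in class II-high Mo-MF and 3.56 and 0.148 in the other Mo-MF cells. A cluster of 45 cultured cells, led by Igkc and named basophil-like, met 8 of 8 B-cell and 5 of 5 basophil markers. It held 5 cells of each B-MF library and 21 and 14 Mo-MF cells. In its B-MF cells H2-DMa per H2-Aa was 0.0348 and 0.103, against 0.969 and 1.02 in monocyte/macrophage-like B-MF cells. Whether the B-MF cells with B-cell markers lay in it was not counted. At least 3 of 6 dendritic cell markers were found in 0 and 1 class II-high B-MF cells. The mean summed dendritic cell marker count was 0.797 and 0.596 in class II-high B-MF against 0.349 and 0.312 in the other B-MF cells. For Mo-MF it was 0.607 and 0.699 in class II-high cells against 0.963 and 0.93 in the others. In each B-MF library 4 cells fell in a cluster led by Ccr2 that was otherwise made up of 61 and 64 Mo-MF cells. All 4 were class II-high in each library, with a mean sum of 534 and 436, and held 15.4 and 13.3% of the library's chain counts. Over all class II-high B-MF cells the mean summed count of 6 monocyte markers was 0.759 and 1.28, against 0.623 and 0.605 in the other B-MF cells, and at least 3 of the 6 were found in 0 and 1 class II-high cells; Ly6c2 was at 0 in all B-MF cells. The comparison was repeated without such cells. As they were bright B-MF cells, lower chain means in B-MF had to follow, so the fit gives sizes and is no test of their part. Without the cells carrying B-cell markers and without this cluster, a comparison chosen after seeing the data, the log2 difference was 0.82 for H2-Eb1 (limma adjusted p = 1.58e-05), 0.78 for Cd74 (adjusted p = 0.000398), 0.24 for H2-Aa (adjusted p = 0.0299) and 0.17 for H2-Ab1 (adjusted p = 0.109), so the call for H2-Ab1 was lost.

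Of 34 further genes of the pathway, 31 were in the cultured table and 24 were tested: 4 were higher and 6 lower in B-MF, a share close to the 39.5% of all genes called, and their median log2 difference was -0.10 against 0.02 over all genes. The costimulator Cd86 was at 0.768 and 0.671 in B-MF against 0.184 and 0.182 in Mo-MF (log2 difference 1.53, limma adjusted p = 8.75e-07). Cd83, which protects class II and CD86 from degradation, was at 1.42 and 1.33 against 0.391 and 0.365 (1.63, adjusted p = 3.24e-07). The lysosomal proteases Ctss, which trims the invariant chain, and Ctsl were lower, at 52.9 and 50.9 against 78.3 and 76.8 for Ctss (-0.58, adjusted p = 6.02e-05) and at 128 and 126 against 302 and 309 for Ctsl (-1.27, adjusted p = 5.88e-07). Of the RFX subunits that bind the X box, Rfxank was at 0.174 and 0.144 against 0.203 and 0.184 (adjusted p = 0.0652) and Rfxap at 0.575 and 0.52 against 0.628 and 0.606 (adjusted p = 0.0803). The third subunit, Rfx5, stood below the tested level, at 0.111 and 0.0924 in B-MF against 0.059 and 0.0562 in Mo-MF. H2-Ea-ps, the pseudogene of the I-E α chain in some strains, was not found by that name among the genes of the cultured or the tumor cells.

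Across cells the 3 chains and Cd74 mostly followed each other more closely than they followed H2-DMa. The 6 pairs among the 3 chains and Cd74 had a median Spearman rho across cells of 0.509 and 0.511 for B-MF, 0.565 and 0.523 in Mo-MF, and 0.651 to 0.807 in the 4 tumor libraries. The 6 pairs with H2-DMa had medians of 0.244 and 0.217 in B-MF, 0.2 and 0.193 in Mo-MF and 0.466 to 0.596 in tumor cells. In B-MF the weakest of the first 6 pairs was H2-Eb1 with Cd74 (mean rho 0.409), and H2-DMb1 followed H2-Eb1 (0.473) more closely than it followed its own partner H2-DMa (0.193). These values describe cells of 1 library each, which share its depth, and most cells of the cultures are tied at 0. Pearson's r of the log values, which weighs the bright cells, had medians over the first 6 pairs of 0.78 to 0.836 in the cultures.

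**Figure D3:**
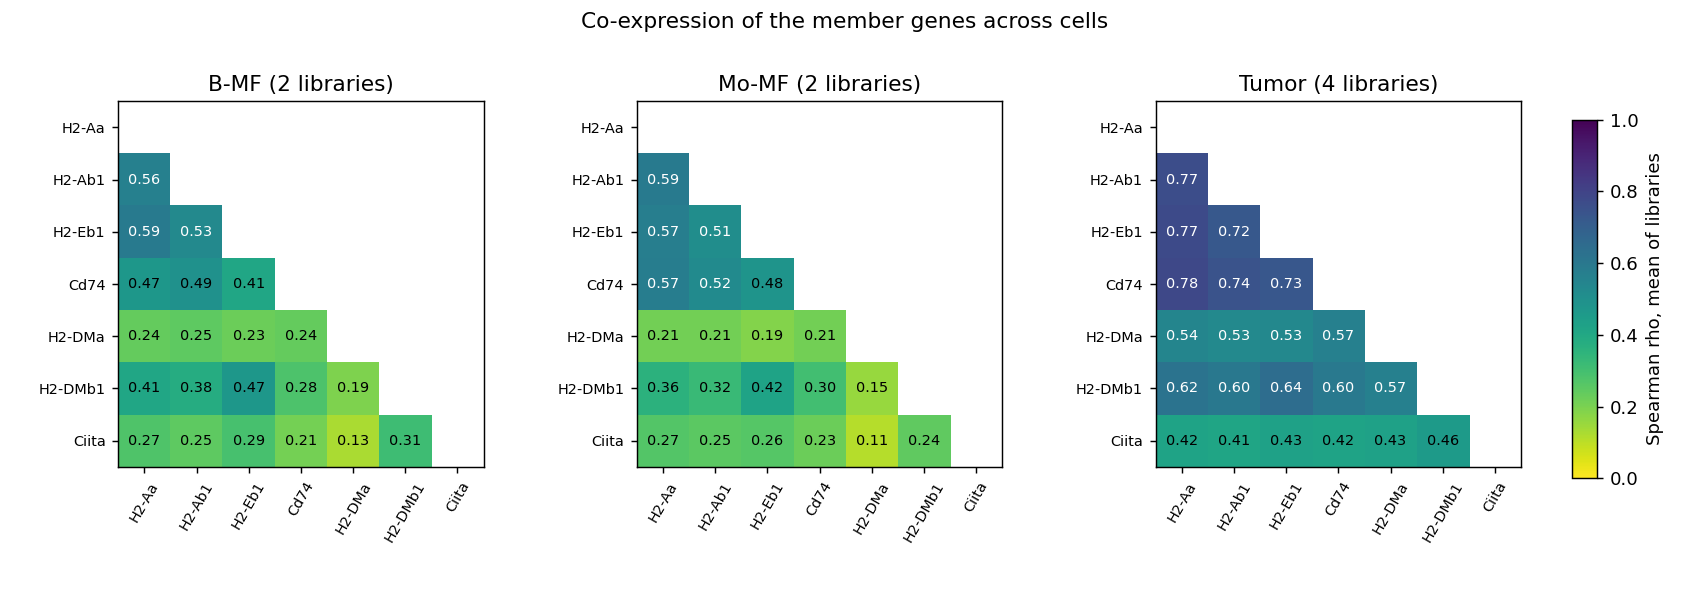
Spearman rho across cells for each pair of the 7 genes, averaged over the libraries of each group. The block of H2-Aa, H2-Ab1, H2-Eb1 and Cd74 holds the 6 highest pairs in Mo-MF and Tumor; in B-MF H2-Eb1 with H2-DMb1 (0.473) exceeds 2 pairs of the block (0.409 and 0.469), and the H2-DMa row is pale in both cultures and filled in tumor cells.

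Outside the class II genes, the genes whose counts most closely followed the chain sum across cells reached a mean rho of at most 0.242 in the cultures. In B-MF they were Plbd1, Ifitm1 and the cathepsin gene Ctsh, at a mean rho of 0.242, 0.241 and 0.241 over 2 libraries and 8298 genes. The membrane genes Tmem176a and Tmem176b followed at 0.161 and 0.16, Clec4a1 at 0.157, the cathepsin gene Ctsc at 0.149, C1qb and C1qc, complement subunits made by macrophages, at 0.145 and 0.141, and Jaml at 0.14. In Mo-MF the lead was held by Clec4a1 (0.178), Cxcl16 (0.173) and Plxdc2 (0.171). Ctsh was at 0.17, Fcgr4 at 0.163, Ly86 at 0.162, Ctss at 0.16, Clec4a3 at 0.155, and Emb and C1qc at 0.153 each. Clec4a1, Ctsh and C1qc were in the first 10 of both cultures. In tumor cells Aif1 (0.449), Cxcl16 (0.444) and Ptma (0.381) led over 4 libraries and 5445 genes, followed by Ppia (0.379), Rpl12 (0.367), Spon1 (0.36), Ctss (0.359), the class I gene H2-K1 (0.358) and Rpl38 (0.353). The neutrophil genes Wfdc21 (-0.367), Hp (-0.346) and S100a8 (-0.343) were among the most opposed, named after their values were seen. All these rho values were taken over all cells of a library, and neutrophil-like cells are a large part of the tumor cells. None was taken within a cell class, and the part of the cell mixture in them was not tested. The rho values in the cultures were weak.

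In tumors the chain genes were more widely present than in the cultures: H2-Aa had a count in 46.3 to 62.6% of monocyte/macrophage-like tumor cells, against 9.39 and 8.52% of those of B-MF, with 13.3 and 12.4% for Mo-MF. For H2-DMa the order depended on the cells counted. Over all cells it had a count in 47.6, 26.9, 40.8 and 35.7% of tumor libraries 2, 3, 4 and 5, against 51 and 47.1% for B-MF cells, with 62.3 and 62.4% for Mo-MF cells, whereas among monocyte/macrophage-like cells the shares were 64.7 to 74.2% in tumors, 49.7 and 46.1% for B-MF and 63.7 and 62.8% for Mo-MF. The tumor cells had the lower corrected totals, and these values come from 2 tables and are set side by side with no test. The chain sum was 0 in 35.1, 47.1, 35.1 and 40.7% of cells of libraries 2, 3, 4 and 5, and class II-high cells made up 30.5% (interval 28.9 to 32.1%), 16.5% (15 to 18.1%), 29.6% (27.8 to 31.5%) and 24.5% (23 to 26.1%). Their brightness hardly varied between libraries, with a mean sum of 75.1 to 81.2 in class II-high cells. Library 3 was lowest for every member, for example 5.55 for H2-Aa against 9.27, 9.43 and 8.24, and 13 for Cd74 against 25.4, 21.3 and 20.4. Library 3 also had the largest share of neutrophil-like cells, 62.2% against 35.3, 46.5 and 54.9%; the part of this share in the library's level was not tested. Within monocyte/macrophage-like cells its class II-high share was still the lowest, at 31.9% against 44.7, 47.6 and 42.7%.

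The tumor cell groups differed in how much class II they carried and in which members. B-like cells (8, 52, 75 and 109 cells) were class II-high in 100, 96.2, 100 and 100% of cells. A monocyte/macrophage-like cluster of 716 cells, 3.88 to 9.53% of a library, reached 81.1 to 91.6% with a mean sum of 125 to 153. It was led by H2-Eb1, Timd4, H2-Ab1, H2-DMb1 and H2-Aa although no class II gene had entered the clustering, and it met 8 of 8 macrophage, 4 of 6 monocyte and 5 of 9 dendritic cell markers. The clusters of this class that contained Arg1 or Ccr2 among their leading genes, which met 5 of 8 macrophage and 6 of 6 monocyte markers, had 23.5 to 40.5% and 26.6 to 31.2% class II-high cells, and the C1q-led one 29.3 to 51%. Dendritic-like cells (21 to 30 per library, led by Ccl5, Fscn1 and Ccr7) were class II-high in 45.8 to 57.1%. The name depended on the clustering: at a coarser resolution of 0.25 a cluster of 103 cells with the same leading genes was left unnamed, and 41 other cells led by Siglech were called dendritic-like, of which 93.3 to 100% were class II-high.

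Neutrophil-like cells, which are not known for class II, still held some counts. They were class II-high in 4.79 to 7.3% of cells and had an H2-Aa count in 28.2 to 36.8%, at a median of 1319 to 1380 detected genes. Monocyte/macrophage-like cells had an H2-Aa count in 46.3 to 62.6% at 2480 to 2503 detected genes. Among neutrophil-like clusters an H2-Aa count was found in 12.3 to 18.3% of cells of the one led by Ngp and in 29 to 42.4% of the one led by Ciart, and whether these counts are the cells' own was not tested. H2-DMa had a count in 4.65 to 6.76% of neutrophil-like and in 64.7 to 74.2% of monocyte/macrophage-like cells, with means of 0.0917 to 0.123 and 1.96 to 2.46. The ratio of H2-DMa to H2-Aa counts was 0.098 to 0.113 in neutrophil-like and 0.152 to 0.173 in monocyte/macrophage-like cells. In the cultures the neutrophil-like Mo-MF cells had H2-DMa at 0.903 and 0.934, against 1.27 and 1.22 in monocyte/macrophage-like Mo-MF.

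In the dendritic-like cluster led by Ccl5, Fscn1 and Ccr7 both H2-DM genes were low, while the chains differed among themselves. H2-Aa stood at 12.3 to 22.5 there, above the monocyte/macrophage-like cells of the same library in 4 of 4 libraries (11.8 to 16.2), yet H2-DMa stood at 0.286 to 0.607 against 1.96 to 2.46 and H2-DMb1 at 0.0667 to 0.125 against 0.957 to 1.38. The groups did not overlap for either H2-DM gene, and the share of all genes without overlap was not counted. H2-Ab1 was also lower in dendritic-like cells in 4 of 4 libraries (3.58 to 9.54 against 10.4 to 14.6), H2-Eb1 was at 14.8, 6.17, 9.52 and 11 against 9.75, 7.85, 10.7 and 10.4, and the chain sum was lower in 3 of 4 libraries. H2-Ab1 per H2-Aa was 0.291 to 0.468 in dendritic-like, 0.45 to 0.647 in B-like and 0.87 to 0.942 in monocyte/macrophage-like cells, in the same order in 4 of 4 libraries. H2-DMb1 per H2-Aa was 0.0154 to 0.0241 in B-like cells and 0.0806 to 0.0863 in monocyte/macrophage-like cells. Ciita was highest in the class II-led cluster (0.931 to 1.1) and in B-like cells (0.625 to 1.16), against 0.277 to 0.354 in all monocyte/macrophage-like cells. The classes were built from these same cells, so these differences are given as values with no test, and the dendritic-like class holds 103 cells of 1 cluster, so the values say nothing of other dendritic cells.

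**Figure D4:**
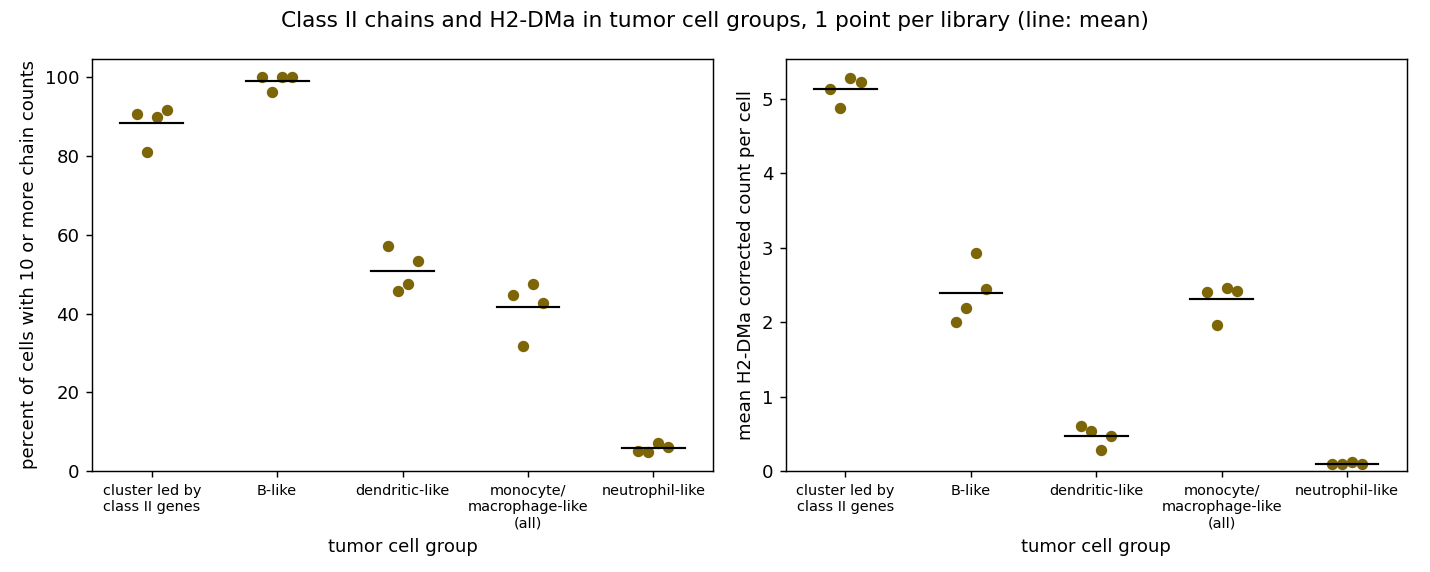
Percent of cells with a chain sum of at least 10 (left) and mean corrected H2-DMa count per cell (right) in groups of tumor cells, with 1 point per library and a line at the mean. Dendritic-like cells sit beside monocyte/macrophage-like cells on the left and far below them, at 0.286 to 0.607, on the right.

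In B-cell precursors every member had open chromatin at a transcription start. ATAC-seq peaks overlapped the window of 500 bases on either side of an annotated start (GENCODE, mm10) of all 7 genes in all 12 libraries, as they did for 48.9% of 21840 protein-coding genes. The number of peaks per library was 65832 to 76530 in bone marrow and 43407 to 50392 in spleen. The lists hold no read counts, so each peak was described by its percentile by fold enrichment among all peaks of its library, and no test was made.

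The chain promoters ranked higher in bone marrow than in spleen. The H2-Aa peak was at percentiles 73.5 to 78.2 in BM CSF1R+ and 72.7 to 80.9 in BM CSF1R-, against 37.4 to 40.1 and 34 to 42.4 in Spleen CSF1R+ and Spleen CSF1R-. The H2-Eb1 peak was at 66.1 to 68.9 and 62.7 to 75.1 against 34.3 to 38.1 and 30.4 to 35.1, and the H2-Ab1 peak at 68.9 to 72.6 and 64.8 to 71.4 against 47.8 to 54.9 and 46.9 to 50.2. The bone marrow libraries lay above the spleen libraries for each of the 3 chains. The share of all genes with such a separation was not counted, and the study reports tissue as the strongest source of chromatin differences. CSF1R+ and CSF1R- libraries overlapped in each tissue for every chain. H2-DMa had the highest peak of the 7 in every group, at the starts 34135628 and 34135654 of chromosome 17, at percentiles of 98.8 to 99.7 in bone marrow and 96.9 to 98.2 in spleen, while its peak at the start 34122832 was at 6.61 to 16.4. The Cd74 peak (chromosome 18) was at 29.7 to 48.6 in bone marrow and lower, at 20.9 to 27, in spleen, while its fold enrichment overlapped (5.75 to 7.77 against 5.68 to 6.14). H2-DMb1 did not share this order: its percentiles of 59.4 to 82 in bone marrow overlapped those of 70.7 to 79.9 in spleen, and its fold enrichment was 8.73 to 15.3 in bone marrow and 15.9 to 17.4 in spleen. For the chains fold enrichment was closer than the percentiles for H2-Ab1, at 11.1 to 13.2 in bone marrow against 9.05 to 10.3 in spleen. It was 12.4 to 15.6 against 7.03 to 8.17 for H2-Aa and 10.6 to 14.3 against 6.56 to 7.5 for H2-Eb1. The spleen lists held fewer peaks than the bone marrow lists, with a higher median fold (9.22 to 10.1 against 7.34 to 8.59). The part of this in the percentiles was not tested.

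Ciita is read from several starts on chromosome 16, used by different cell types: the first in dendritic cells and macrophages, a later one in B cells, and the last after interferon. No library had a peak at the first start group (10480059 to 10480164). At the second (10488279) all 12 had one, at percentiles of 59.9 to 64.7 and 60.2 to 65.7 in BM CSF1R+ and BM CSF1R- and of 34.1 to 62.8 and 27.7 to 59.1 in spleen. At the last (10489781 to 10489783) a peak was listed in 3, 2, 2 and 3 of 3 libraries of BM CSF1R+, BM CSF1R-, Spleen CSF1R+ and Spleen CSF1R-, but in 4 of the 5 bone marrow libraries its summit was far upstream (-821 to -856 bases from the start), and in BM CSF1R+ replicate 2 it was the same peak as at the second start. The peaks with a summit near the start were at percentiles of 2.38 in 1 bone marrow library and 1.51 to 12 in 5 spleen libraries.

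**Figure D5:**
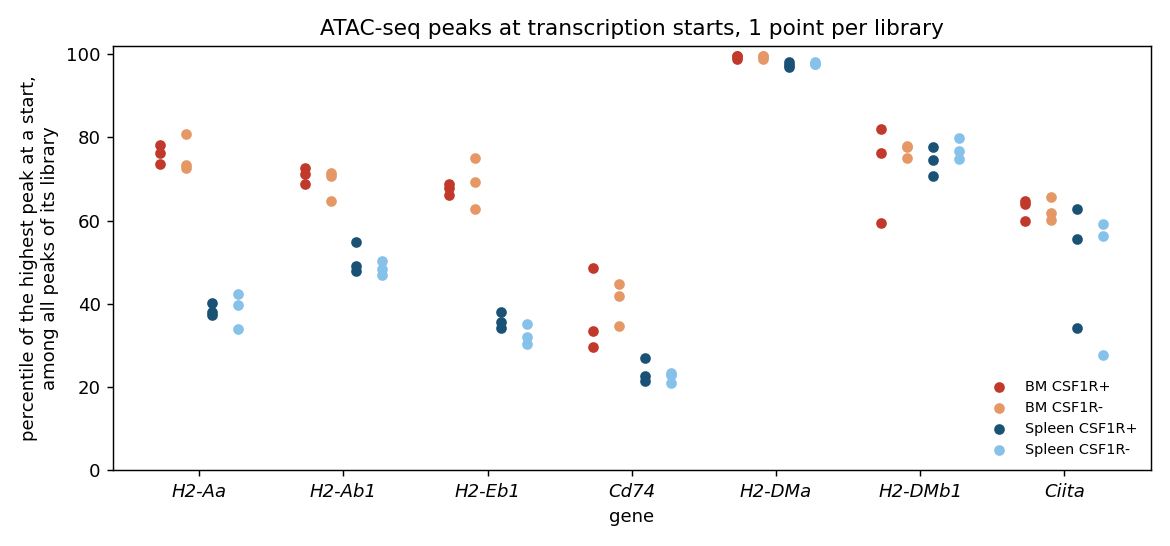
Percentile by fold enrichment of the highest ATAC-seq peak at a transcription start of each gene among all peaks of its library, with 1 point for each of 12 libraries. For the 3 chain genes the bone marrow points (62.7 and above) lie above the spleen points (54.9 and below), and H2-DMa is at 96.9 or above in each library.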

How the data were processed

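The 7 genes, the further pathway genes and the marker lists were chosen with earlier results of these data known. Per the study's methods the authors counted 10x 3' libraries with Cell Ranger and corrected the counts with SCTransform in Seurat; the submitters' processing notes name mm10 and STAR for these samples, and whether the 2 tables were corrected together was not given in the sources used here. The deposited values are the natural log of 1 plus the corrected count; the counts were recovered as round(exp(value) - 1), whole within 0.002. Each library was counted as 1 replicate. The p-values of the main fit measure the spread between libraries, moderated over genes, which may be technical. At a pseudocount of 1, on the natural log scale, with the replicate block and without a Mo-MF library, the tested members had the same SE. The p-values of those fits rest on a spread pooled over genes and not on each gene's own libraries. limma 3.58.1 (R 4.3.3) was fitted to log2(library mean + 0.1) for B-MF against Mo-MF. Data for that comparison were also simulated with normal noise and 8633 genes, of which 67 were moved at each size below. The fit recovered 76.1% of genes moved by 0.5 and 97% of those moved by 1 (log2). In the data 39.5% of genes were called, so these rates may not carry over. Cells were clustered with leidenalg 0.10.2 and no doublet caller was run; the part of doublets in the brightest cells was not tested. Values were named for all 7 genes, for pathway genes past the threshold with a log2 difference of at least 0.5, for the RFX genes and H2-DMb2, and for the 10 genes closest to the chain sum. Not every gene that met this rule is reported here. For ATAC-seq the labels name cutadapt, BWA and MACS2 on mm10; the authors called peaks per library, and the deposited fold enrichment (a ratio) and -log10 q-value and p-value columns were used as given, with the -log10 q for a stricter list only. The series' union of peaks was not used.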

Additional observations from a re-analysis of the deposited data

Results flagged for a closer look

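Among 33 measures compared over the 4 tumor libraries, 1 was marked for a library far from the other 3, about as often as chance marks such groups (about 1 in 20). The share of class II-high cells among B-like cells was 96.2% in library 3 and 100% in the other 3 libraries; it rests on 2 of 52 cells.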

How the results depend on the processing

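The number of tested members past the threshold, 5, was 4 to 5 when a cultured library was left out and 2 on the natural log scale, and 4 to 5 in the other settings. These are not always the same members. With no filter on low means 7 were tested, and the 4 called were H2-Eb1, Cd74, H2-DMa and Ciita. With a mean of at least 0.5 only 4 were tested. Over all genes, 1918 were called higher and 1750 lower of 15855 with no filter. With a mean of at least 0.5 these were 1697 and 951 of 4045. The background moved with the setting, so a steady count of members says little about them. Fits without a library leave 1 group with 1 library, so their spread comes from the other group alone. Without a Mo-MF library it was pooled over genes. H2-Aa and H2-Ab1 reversed on the natural log scale (-0.0445 and -0.046), and by the share of cells with a count H2-Aa, H2-Ab1 and H2-DMb1 were lower in B-MF by -3.19, -3.8 and -0.207 percentage points, against higher means. H2-Ab1 lost its call with a pseudocount of 0.01 (limma adjusted p = 0.0507), without a filter (0.115) and without Mo-MF replicate 2. H2-Aa lost it without a filter (0.0677), and H2-DMa without Mo-MF replicate 1. With the replicate number as a block all 5 tested members kept their calls, at the same SE of 0.0623, so the spread was pooled over genes. The calls over all genes were then 2238 higher and 1670 lower against 1955 and 1458. Same-numbered B-MF and Mo-MF libraries share only a number (correlation of deviations 0.126). Without B-MF replicate 2, 3854 genes were called higher and 1678 lower; without B-MF replicate 1, 2248 and 2950; without Mo-MF replicate 1, 1128 and 863; without Mo-MF replicate 2, 1112 and 1020.

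The median class II-high share moved with its edge: at 5 it was 4.89, 5.95 and 34.2% in B-MF, Mo-MF and Tumor, at 20 it was 2.28 and 2.14% in the cultures, and at 50 it was 1.13, 0.759 and 14.3%. With Cd74 in the sum it was 6.43, 6.32 and 35.3%, and thinned to 10000 counts 2.46 and 2.28% in B-MF and Mo-MF. In monocyte/macrophage-like clusters alone it was 43.7% in Tumor. Leaving out a library gave 2.93 to 3.57% in B-MF, 3.21 to 4.15% in Mo-MF and 24.5 to 29.6% in Tumor. The median rho of the 6 pairs among the chains and Cd74 became 0.825, 0.794 and 0.895 as Pearson's r and 0.901 in monocyte/macrophage-like tumor cells. At a clustering resolution of 0.25 another cluster, led by Siglech, took the name dendritic-like (41 cells, 4 to 17 per library, median class II-high share 100%), and the 103-cell cluster led by Ccl5 and Fscn1 was left unnamed. All 7 members had a peak in all libraries under every peak setting tried. Low counts limit Ciita and H2-DMb1.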
